A study of Mus musculus with 10 samples.

Results

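The miR-99, miR-100 and miR-125 miRNAs were followed in livers that lacked Tsc1 and in livers of littermate controls. Members were taken by name alone: a row of the deposited table belonged when its name, without the species prefix and the strand, was miR-99a, miR-99b, miR-100, miR-125a or miR-125b. This gave 6 of 285 rows, which were miR-99a, miR-99b, miR-100, miR-125a-5p, miR-125a-3p and miR-125b-5p. The rows miR-125b-1-3p and miR-125b-2-3p carry a hairpin number in their names and did not meet the rule. They are the opposite strands of miR-125b-5p and are described beside it, a choice made after their values had been seen. The study sequenced small RNA from 10 mouse livers at 14 weeks of age. Mice whose livers were knocked out for Tsc1, called L-Tsc1KO in the labels, gave 5 of them, and their littermate controls gave the other 5. All mice had free access to food and water. Strain, sex and the driver of the knockout are not given in the labels, and Tsc1 messenger RNA was not analysed here.

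A miRNA is cut from a hairpin precursor, loaded into an Argonaute protein and pairs through its seed, bases 2 to 8 from its 5′ end, with messenger RNAs that it represses. Tsc1 is a subunit of the TSC complex, which keeps the kinase complex mTORC1 in check, so that its loss leaves mTORC1 active. In human cells miR-99a and miR-100 have been described as repressors of the transcripts for mTOR and the IGF1 receptor, which places them on the pathway that Tsc1 restrains. miR-125 is the counterpart of lin-4, a timing miRNA of worm development, and in mammals it has been linked to cell fate and to the p53 pathway. The miR-99, let-7 and miR-125 hairpins are neighbours in 3 clusters of the genome.

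The mature sequences are shown because the 5p members hold 2 seeds, and the variation between libraries described below differed between these 2 groups. Whether the seed has a part in that was not tested. The deposited names miR-99a, miR-99b and miR-100 carry no strand, and in the older naming they stand for the 5p strand. RefSeq sequences on GRCm38.p6 matched all 6 members. Capitals mark the seed:
miR-100: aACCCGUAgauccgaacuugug
miR-99a: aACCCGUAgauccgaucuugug
miR-99b: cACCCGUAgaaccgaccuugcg
miR-125a-5p: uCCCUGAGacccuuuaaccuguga
miR-125b-5p: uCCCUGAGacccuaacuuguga
miR-125a-3p: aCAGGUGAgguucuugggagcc
miR-10a: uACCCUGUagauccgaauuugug
miR-351: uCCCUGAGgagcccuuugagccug
let-7e: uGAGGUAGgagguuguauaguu

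miR-100, miR-99a and miR-99b share the seed ACCCGUA, and no other of the 1679 mature miRNAs in the RefSeq table has it. Counted from the 5′ end, miR-100 and miR-99a differ at 1 of 22 positions, A16U. Reads of one could therefore have been counted for the other if mismatches were allowed, and the counting rule is not given in the sources used here. miR-99b differs from miR-100 at 4 positions, A1C, U11A, A16C and U21C. The 5p strands of miR-125a and miR-125b share the seed CCCUGAG with miR-351, miR-6367 and miR-6394. They differ from each other by an edit distance of 3. miR-10a, a relative outside the family at an edit distance of 3 from miR-100, has an extra base in the seed region, which then reads ACCCUGU. The 3p strand of miR-125a has a seed of its own, CAGGUGA.

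Each cluster holds 1 hairpin of each kind on the plus strand (GRCm38.p6). On chromosome 9, Mir100 lies at 41531425 to 41531504, Mirlet7a-2 at 41536716 to 41536811 and Mir125b-1 at 41581926 to 41582002. On chromosome 16, Mir99a lies at 77598936 to 77599000, Mirlet7c-1 at 77599657 to 77599750 and Mir125b-2 at 77646273 to 77646343. On chromosome 17, Mir99b lies at 17830188 to 17830257, Mirlet7e at 17830352 to 17830444 and Mir125a at 17830812 to 17830879. The chromosome 17 cluster spans 692 bases, against 50578 on chromosome 9 and 47408 on chromosome 16. In the GENCODE M21 annotation the chromosome 16 hairpins lie in introns of the noncoding host Mir99ahg, and Mir99b and Mirlet7e in an intron of the protein-coding gene Spaca6, with Mir125a partly in an exon of it. The chromosome 9 hairpins lie in introns of the noncoding transcript 3110039I08Rik, and Mir125b-1 also overlaps an exon of Gm28119. Because miR-125b-5p comes from both chromosome 9 and chromosome 16, its level is the sum of 2 hairpins.

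The 3′ UTR of Mtor holds a letter match to the seed of miR-99 and miR-100, as do those of other genes. The seed of miR-99 and miR-100 pairs with TACGGGT, and this string occurs on the transcript strand in 229 of 20958 mouse 3′ UTRs of GENCODE M21 (1 transcript a gene), or 1.09%. The 823-base 3′ UTR of Mtor, on chromosome 4, holds 1 match, and that of Igf1r, which encodes the IGF1 receptor on chromosome 7, also holds 1. Capitals mark the match:
Mtor, chr4:148557149-148557155: tgggtaactgagaaaTACGGGTt
Igf1r, chr7:68232107-68232113: ctaagtccagtagatTACGGGTa
No match to this string was found in the 3′ UTRs of Rptor, Rictor, Tsc1, Rheb or Akt1. The match to the miR-125 seed, CTCAGGG, is far more common, in 13.0% of 3′ UTRs, and was found in none of these 7 genes. These are letter matches in 1 window a gene, and binding was not measured.

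The values are read counts that the authors divided by 1 factor per library, here called normalised reads. The libraries held 6228497 to 12129069 miRNA reads. All 285 rows entered the tests. Libraries stood apart within genotypes: replicate 1 of both genotypes departed alike from its group, with 37 of 184 miRNAs (those whose mean reached 100 normalised reads) more than 0.5 lower on the log2 scale in both and 29 more than 0.5 higher in both. Control replicate 2 was the highest library for biliary epithelial and striated muscle miRNAs, and results are also given without these libraries where they differ. Nothing in the labels says which livers were handled together. The libraries of a genotype carry neighbouring numbers, and an effect of that order and one of genotype cannot be told apart.

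The guide strands were abundant and the 3p strands were not. Mature miRNAs of 22 to 24 bases need no scaling by length, but libraries capture different miRNAs unequally, so the order of levels is that of captured reads. By mean level over 10 libraries the order was miR-99a at 37531, miR-125b-5p at 28065, miR-125a-5p at 23578, miR-100 at 16859, miR-99b at 14663 and miR-125a-3p at 56.1 normalised reads. miR-99a ranked 28th and miR-99b 39th among the 285 rows. Within each library miR-99a exceeded miR-100, by 1.67 to 2.91 times. miR-99b and miR-100 were close, with ratios of miR-99b to miR-100 from 0.784 to 1.12 that were under 1 in 9 of 10 libraries. miR-125a-5p was below miR-125b-5p in 10 of 10 libraries, but their ratio ran from 0.492 to 0.972. The place of miR-125b-5p between miR-99a and miR-100 did not hold in every library: it was below miR-100 in replicate 1 of both genotypes and above miR-99a in control replicates 2 and 4.

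No member passed the test between genotypes. The comparison used limma on log2(normalised reads + 1), with p-values adjusted over all 285 rows and a threshold of 0.05. Of the 6 members, 0 rose and 0 fell, where 13.0% of all rows passed, 10.9% as higher and 2.11% as lower. At an unadjusted p under 0.05 the count was also 0 of 6, against 22.5% of all rows, and voom on whole reads called 0. The genotypes overlapped in 6 of 6 members, while 12.6% of all rows did not overlap. The median log2 fold change of the members was -0.21, and 5 of 6 lay below 0. Over all rows the median was -0.06 and 57.5% lay below 0. Because these are whole livers, fewer cells of a type and less of a miRNA per cell cannot be told apart.

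**Figure D1:**
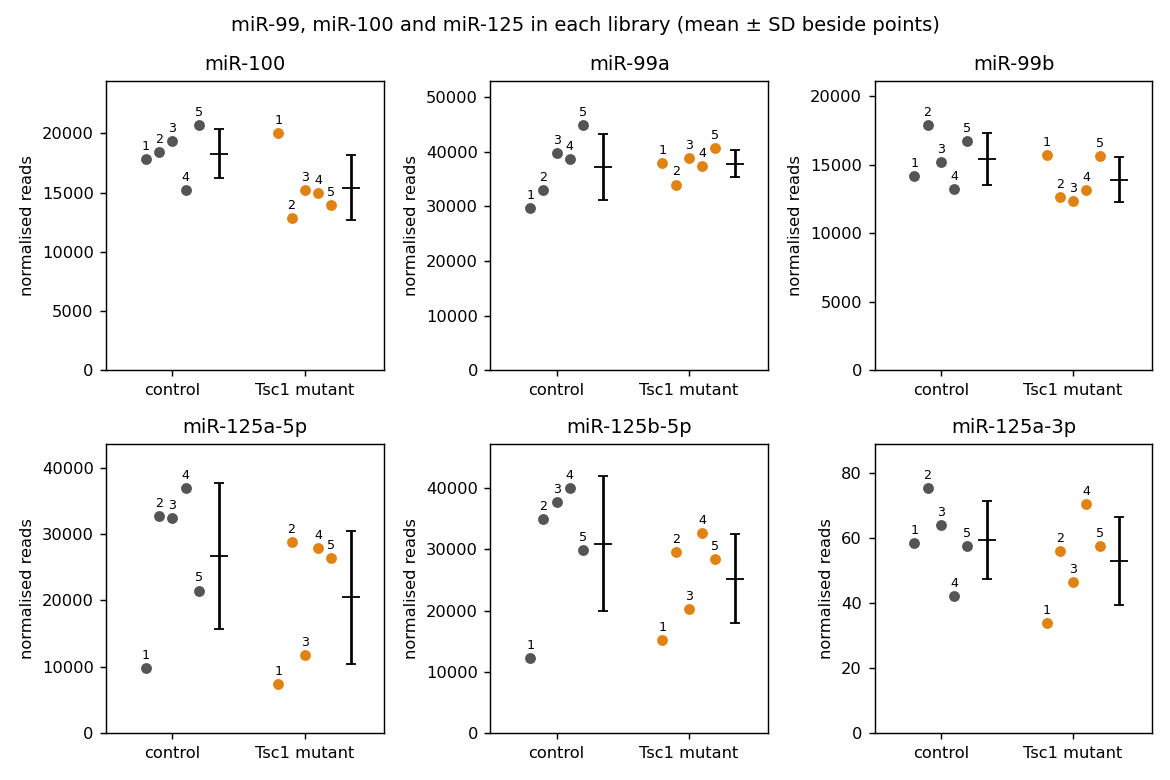
Normalised reads (vertical axes, from 0) of the 6 members in each of 5 control and 5 Tsc1 mutant libraries. Points carry the replicate number, and the bar beside them is the mean ± SD. The genotypes overlap in all 6 panels, and replicate 1 is the lowest of its group for miR-125a-5p and miR-125b-5p in both genotypes, followed in the mutants by replicate 3.

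miR-100, from the chromosome 9 cluster, had the smallest p of the 6. Its normalised reads in control replicates 1 to 5 were 17805, 18426, 19378, 15210 and 20699. In mutant replicates 1 to 5 they were 19994, 12863, 15241, 15003 and 13977. Mutants were lower apart from replicate 1, which lay above 4 of the 5 controls, and control replicate 4 lay within the mutant range. The means were 18303 ± 2045 and 15416 ± 2727 normalised reads (SD, n = 5 each). The log2 fold change was -0.26 with a 95% interval of -0.57 to 0.05 and a limma adjusted p of 0.338. Without replicate 1 of both genotypes it was -0.36, with an interval of -0.62 to -0.10, an unadjusted limma p of 0.0114 and an adjusted p of 0.0611. With limma array weights, which gave control replicate 1 a weight of 0.179 and mutant replicate 1 a weight of 0.386, miR-100 passed as lower at -0.39 (adjusted p = 0.0289). That fit called 8.07% of all rows as lower, and over the alternatives the adjusted p of miR-100 ran from 0.0289 to 0.588.

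miR-99a, from the chromosome 16 cluster, had close means of 37227 ± 5966 in controls and 37836 ± 2450 normalised reads in mutants (SD, n = 5 each). Its normalised reads were 29721, 32958, 39763, 38786 and 44905 in control replicates 1 to 5 and 38040, 34029, 38966, 37470 and 40674 in the mutants. All 5 mutants lay inside the range of the controls, with a spread (coefficient of variation) of 6.47% against 16.0%. The log2 fold change was 0.04, with a 95% interval of -0.25 to 0.32 and a limma adjusted p of 0.952. The sign turned without replicate 1 of both genotypes, at -0.04 with an interval of -0.29 to 0.20.

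miR-99b, from the chromosome 17 cluster, gave 14159, 17872, 15194, 13186 and 16739 normalised reads in control replicates 1 to 5. In mutants it gave 15704, 12637, 12320, 13173 and 15646. Mutant replicates 2, 3 and 4 lay below every control, and mutant replicates 1 and 5 lay among them. The log2 fold change was -0.15, with a 95% interval of -0.43 to 0.13 and a limma adjusted p of 0.587. Summed, the 3 miRNAs of the ACCCGUA seed gave 70960 ± 7813 normalised reads in the 5 controls and 67147 ± 5339 in the 5 mutants (mean ± SD). The seed as a whole took 0.746 ± 0.0792% of each control library and 0.729 ± 0.0603% of each mutant library (mean ± SD), and its sum varied by 1.38 times over the 10 libraries.

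The miR-125 5p strands varied far more between livers of 1 genotype than between genotypes. miR-125a-5p gave 9808, 32693, 32460, 37008 and 21505 normalised reads in control replicates 1 to 5 and 7453, 28760, 11759, 27873 and 26458 in the mutants. Replicate 1 of both genotypes and mutant replicate 3 were the 3 lowest libraries, and control replicate 4 was the highest. The log2 fold change was -0.43, with a 95% interval of -1.45 to 0.59 and a limma adjusted p of 0.704. Without replicate 1 of both genotypes it was -0.44, with an interval of -1.12 to 0.24, and it was -0.76 without control replicate 1 alone and -0.11 without mutant replicate 1 alone. An interval of this width neither shows a difference nor limits it to a small one.

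miR-125b-5p gave 12307, 34888, 37652, 40041 and 29827 normalised reads in control replicates 1 to 5 and 15160, 29576, 20184, 32673 and 28339 in the mutants. The same 3 libraries were lowest. The log2 fold change was -0.24, with a 95% interval of -0.97 to 0.49 and a limma adjusted p of 0.777. Without replicate 1 of both genotypes it was -0.38, with an interval of -0.74 to -0.01, an unadjusted limma p of 0.0433 and an adjusted p of 0.145. In that fit 0 of 6 members passed after adjustment, where 16.1% of all rows did, and 3.86% as lower. Summed, the 2 strands gave 57638 ± 21982 normalised reads in the 5 controls and 45647 ± 17212 in the 5 mutants (mean ± SD), and varied by 3.48 times over the libraries.

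**Figure D2:**
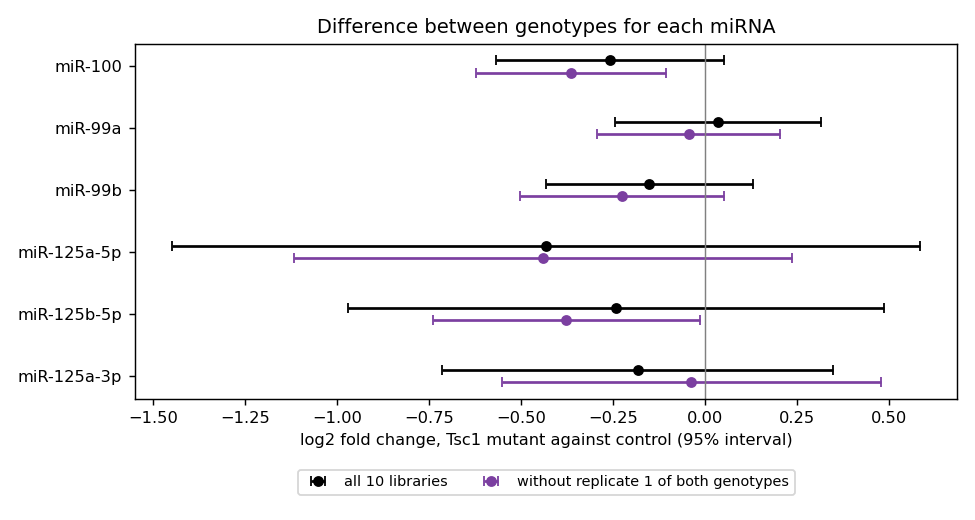
Log2 fold change of each member, Tsc1 mutant against control, with its 95% limma interval, for all 10 libraries (black) and without replicate 1 of both genotypes (purple). All 6 intervals from 10 libraries include 0. Without the replicates 1, those of miR-100 and miR-125b-5p lie below 0, with adjusted p-values of 0.0611 and 0.145.

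The 3p strands followed their 5p partners in part or not at all across libraries. miR-125a-3p, the rarest member, gave 58.3, 75.4, 63.8, 42.1 and 57.5 normalised reads in control replicates 1 to 5 and 33.9, 56.0, 46.3, 70.3 and 57.6 in the mutants. Control replicate 1, low for the 5p strand, was at the middle of the controls for the 3p strand, while mutant replicate 1 was lowest for both strands. The log2 fold change of miR-125a-3p was -0.18, with a 95% interval of -0.71 to 0.35 and a limma adjusted p of 0.771. The ratio of 5p to 3p strand of miR-125a was 168 in control replicate 1 and 220 in mutant replicate 1, and 254 to 880 in the others. miR-125b-2-3p, whose hairpin is that of chromosome 16, was among the steadiest rows described here, with control livers at 376 ± 29.8 and mutant livers at 385 ± 45.1 normalised reads (SD, n = 5 each). It differed by 0.03 on the log2 scale, with a limma adjusted p of 0.952. The ratio of miR-125b-5p to miR-125b-2-3p was 32.2 in control replicate 1, 39.9 in mutant replicate 1 and 43.8 in mutant replicate 3, and 77.1 to 113 in the other 7 libraries where the 5p strand was high. miR-125b-1-3p, from chromosome 9, was rarer at 35.8 ± 18.3 and 29.3 ± 7.11 normalised reads. The chromosome 16 strand exceeded the chromosome 9 strand by 5.82 to 19.9 times, which compares captured 3p strands and not the hairpins themselves.

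Across libraries the miR-125 5p strands varied with the let-7 miRNAs of the clusters, let-7a, let-7c and let-7e, and with miRNAs outside them. miR-99 and miR-100 did not vary with them. let-7, the third miRNA of each cluster, restrains growth and keeps cells differentiated. let-7c, of chromosome 16 and a further locus, gave 47160, 187955, 230728, 286736 and 147277 normalised reads in control replicates 1 to 5 and 64649, 206576, 125894, 211524 and 200263 in the mutants. From the lowest up, the order of libraries for let-7c opened with control replicate 1, mutant replicate 1, mutant replicate 3 and control replicate 5. The order for miR-125a-5p opened with the same 4 libraries, the first pair exchanged. The order for let-7b, which is in none of these clusters, opened as that of let-7c did. Against the median of the other replicates, replicate 1 was at -1.73 in controls and -1.87 in mutants for miR-125a-5p, and at -1.56 and -0.93 for miR-125b-5p (log2 scale). The same differences were -1.91 and -1.78 for let-7e, and -2.14 and -1.65 for let-7c. Outside these clusters they were as low for let-7b, at -2.53 and -1.88, let-7d, at -1.90 and -1.63, and miR-191, at -1.93 and -1.54. For miR-98, of the let-7 family, they were -1.25 and -1.11. They were smaller at -0.72 and -0.28 for let-7f, -0.60 and -0.27 for let-7g, and -0.23 and -0.0044 for let-7i. The let-7 family thus did not vary as 1 group. For miR-100 they were -0.09 and 0.47, for miR-99a -0.40 and -0.01, and for miR-99b -0.17 and 0.28. Of 184 miRNAs ranked from the lowest by the mean of both differences, miR-125a-5p was 8th and miR-125b-5p 18th, while miR-99a was 88th, miR-99b 103rd and miR-100 117th. None of the 3 let-7 miRNAs of the clusters passed the limma test between genotypes, where 13.0% of all rows did. Their log2 fold changes were 0.19 for let-7a, -0.06 for let-7c and 0.01 for let-7e, with a lowest adjusted p of 0.895.

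**Figure D3:**
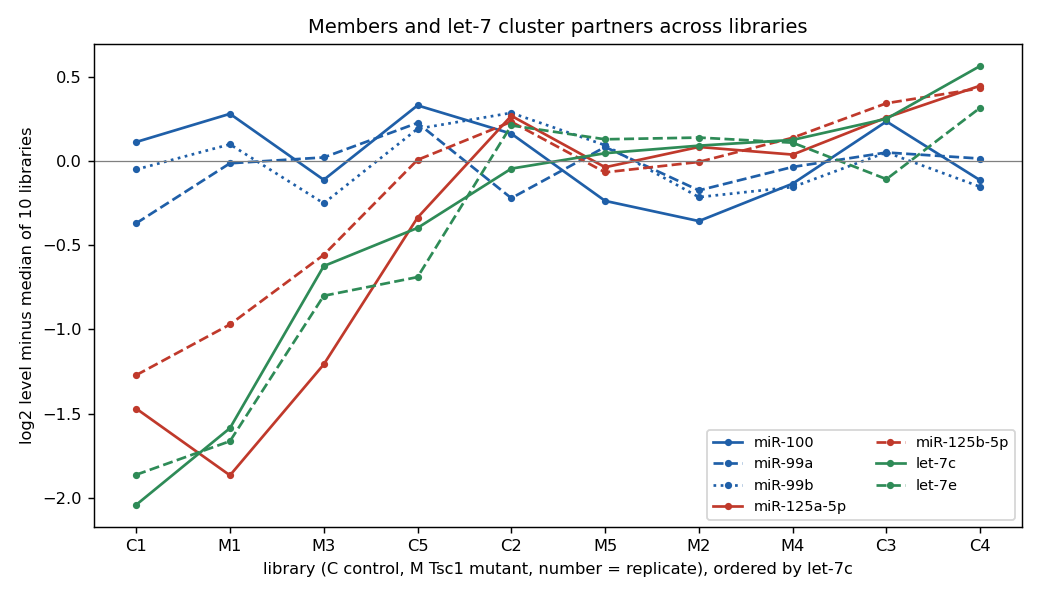
Level of 5 members and of let-7c and let-7e in each library (vertical axis, log2 minus the median of 10 libraries). Libraries are ordered by let-7c, with C for control, M for Tsc1 mutant and the replicate number. The miR-125 5p strands (red) and let-7c and let-7e (green) are low in C1, M1 and M3, where miR-99 and miR-100 (blue) stay within 0.5 of their medians.

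**Figure D4:**
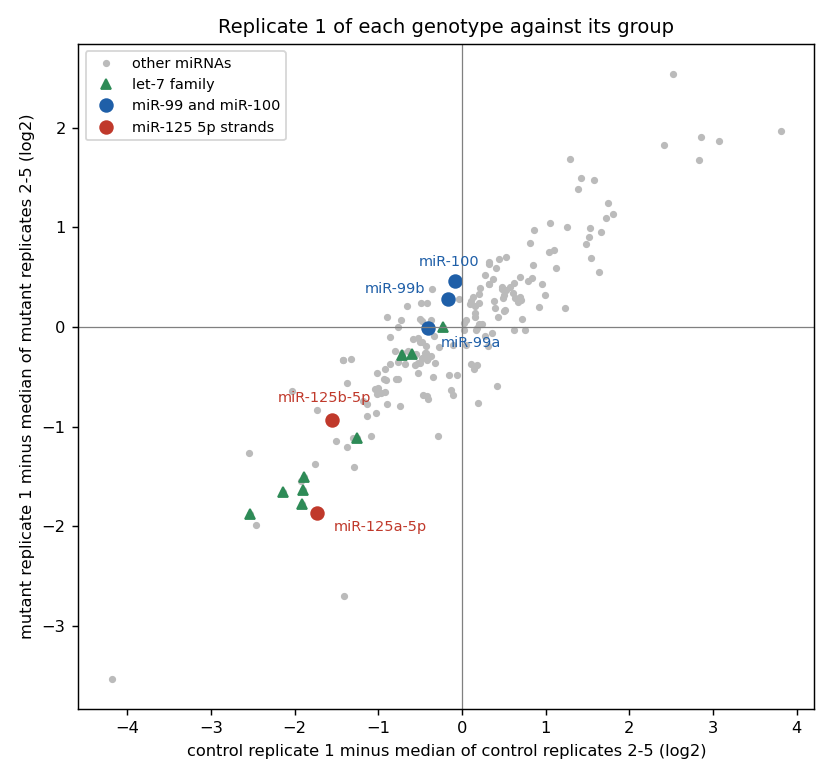
Difference of replicate 1 from the median of its group in controls (horizontal) and mutants (vertical), on the log2 scale, for the same 184 miRNAs. miR-125a-5p at -1.73 and -1.87 lies beside let-7a, let-7c, let-7d and let-7e, and miR-100, miR-99a and miR-99b lie within 0.5 of 0 on both axes.

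Ratios inside a cluster do not depend on how libraries are scaled. Of 15 ratios among members, 3p strands and let-7 partners, 1 did not overlap between genotypes, that of miR-125a-5p to let-7e, whose hairpins are neighbours on chromosome 17. It was 6.90, 5.47, 6.77, 5.75 and 6.71 in control replicates 1 to 5 and 4.57, 5.06, 3.96, 5.00 and 4.68 in the mutants. Every mutant lay below every control, although both miRNAs alone varied far more within each genotype. The means were 6.32 ± 0.659 and 4.65 ± 0.439 (SD, n = 5 each), a difference of -0.44 on the log2 scale. The 2-sided exact permutation p was 0.00794, the smallest that 5 against 5 allows, and 0.119 after Benjamini-Hochberg adjustment over the 15 ratios, so the ratio did not pass. With 15 ratios, 1 separated ratio alone cannot go below 0.119, so that this adjustment could not have called it. Among the other 183 miRNAs whose mean reached 100, the ratio to let-7e did not overlap between genotypes for 14, or 7.65%. The count of 1 of 15 above, over several denominators, is close to that share. The ratio to let-7e was lower in all mutants for 1 of the 183, or 0.546%, which was miR-125a-5p. That 1 is the ratio described here, in the direction it was found to have, so 0.546% is no independent background.

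The other ratios of the clusters overlapped. The background for them was 8.20% not overlapping and 1.64% lower in all mutants for ratios to let-7c, and 9.29% and 2.73% for ratios to let-7a. miR-99b to let-7e was 9.96 in control replicate 1 and 9.62 in mutant replicate 1, against 2.05 to 5.22 in the others. miR-100 to let-7a varied by 5.82 times and miR-99a to let-7c by 4.66 times over the libraries, both highest in control replicate 1. Mature let-7a also comes from a hairpin on chromosome 13, so its level is not that of the chromosome 9 hairpin alone. miR-125b-5p to let-7c varied by 1.87 times. The ratio of miR-99a to miR-100, which share a seed but not a cluster, was 2.05 ± 0.346 in the 5 controls and 2.50 ± 0.371 in the 5 mutants (mean ± SD), with an exact permutation p of 0.0873 and 0.655 after adjustment over the 15 ratios.

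**Figure D5:**
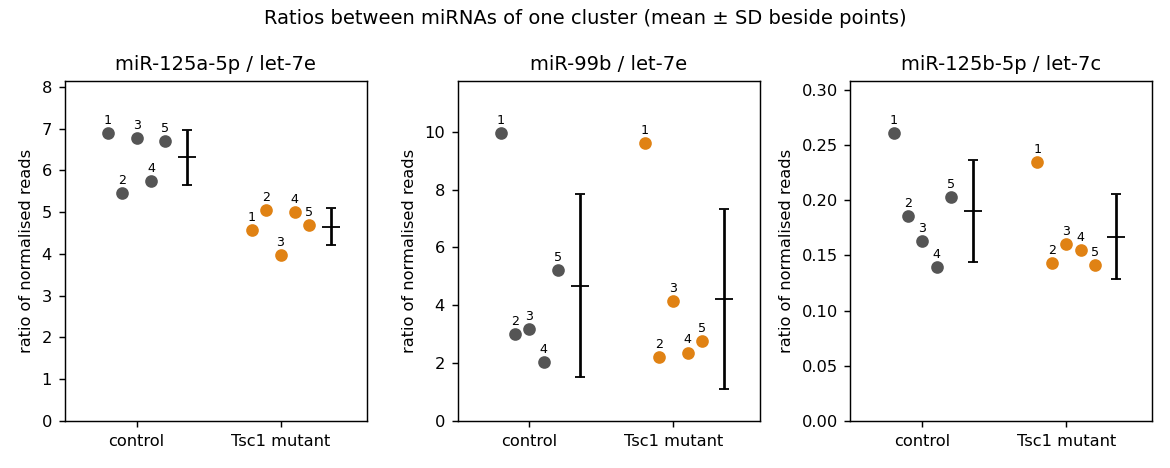
Ratios of normalised reads (vertical axes, from 0) between miRNAs of 1 cluster in each library, with replicate numbers and mean ± SD. For miR-125a-5p to let-7e, controls lie at 5.47 to 6.90 and mutants at 3.96 to 5.06. The other 2 ratios overlap and are highest in replicate 1 of each genotype.

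Likeness to other miRNAs was measured as the SD of the log2 ratio over the 10 libraries, among 179 non-members whose mean reached 100. The nearest to miR-100 was miR-10a, its relative outside the family, from a Hox cluster on chromosome 11, with an SD of 0.170, followed by miR-151-3p at 0.198 and miR-7a at 0.201. miR-99a was nearest to miR-192, an abundant hepatocyte miRNA, at 0.0796, then to miR-22 at 0.112 and miR-1191 at 0.132. miR-99b was nearest to miR-215 at 0.144, miR-24 at 0.196 and miR-339-3p next. For these 3 members the median SD over the 179 was 0.426 to 0.458. miR-125a-5p was nearest to its cluster neighbour let-7e at 0.271, then to miR-191 at 0.294 and let-7c at 0.311. miR-125b-5p was nearest to miR-128 at 0.162, miR-151-5p at 0.188 and miR-98, a let-7 relative, at 0.212. Its seed mate miR-351, of the X chromosome, was 5th for it at 0.237. The let-7 miRNAs of the clusters came later for miR-125b-5p, let-7c 15th at 0.317, let-7a 22nd at 0.334 and let-7e 23rd at 0.337. For miR-125a-5p let-7a was 13th at 0.441. Between the seeds the SD was 0.928 for miR-125a-5p against miR-100 and 0.832 against its cluster neighbour miR-99b. The median SD over the 179 was 0.926 for miR-125a-5p and 0.704 for miR-125b-5p. For miR-125a-5p these distances were thus ordinary, while they exceeded the medians of miR-100 (0.458) and miR-99b (0.435). Library and scaling are shared by all these points, and the values are descriptions.

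Relatives and other miRNAs tied to mTOR showed no call either. miR-670 was not analysed here. Of the 3 relatives by sequence or seed, miR-10a was at -0.08, miR-351 at -0.20 and miR-10b at -0.53. By limma 0 of 3 passed, against 13.0% of all rows, and 0 had an unadjusted p under 0.05, against 22.5%. The medians of miR-10b were close, at 488 normalised reads in controls and 475 in mutants, and control replicate 2 was its highest library at 3302. miR-351 was at -0.32 without replicate 1 of both genotypes (adjusted p = 0.0679). Of 6 other miRNAs described in cell studies as acting on mTOR transcripts, none passed as higher or lower, against the same 13.0%. Their median difference was 0.05 on the log2 scale, against -0.06 over all rows. They were miR-101b at 0.40, miR-144 at 0.32, miR-101a at 0.09, miR-199a-3p at 0.01, miR-96 at -0.25 and miR-7a at -0.32. miR-7a, with 18154 ± 3188 normalised reads in controls and 14428 ± 1578 in Tsc1 mutants (SD, n = 5 each), was the 1 with an unadjusted limma p under 0.05 (adjusted p = 0.179). Of all rows, 22.5% had such an unadjusted p. Without replicate 1 of both genotypes, its highest library in each, miR-7a passed as lower at -0.29 (limma adjusted p = 0.0341). That fit called 16.1% of all rows, and 3.86% as lower.

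Markers of cell types were set beside these values, and each list was present in every library with no value at 0. The hepatocyte list of 4 rows, led by miR-122, summed to 3424220 to 5491450 normalised reads in controls and 3711910 to 4563990 in mutants. Its sum was lowest in replicate 1 of both genotypes. A sum follows its most abundant rows, here and in the lists below. Against the median of the other replicates, replicate 1 was at -0.77 in controls and -0.52 in mutants for miR-122 (log2 scale). The same differences were -0.51 and 0.08 for miR-192, 0.17 and -0.03 for miR-194, and 0.13 and 0.30 for miR-148a. The low sums were thus not shared by all 4 rows. The endothelial list of 2 rows, both strands of miR-126, had its lowest sums in replicate 1 of both genotypes, at 113035 and 114892. Its highest sums were 160119 and 160253. Replicate 1 was at -0.57 in controls and -0.38 in mutants for miR-126-3p, the more abundant strand. For miR-126-5p it was at 0.62 and -0.03, so the 2 strands did not vary alike. The stellate and smooth muscle list of 6 rows ran from 168823 to 369439 in controls and from 136276 to 249924 in mutants, highest in control replicate 2 and mutant replicate 1. The leukocyte list of 6 rows was highest in replicate 1 of both genotypes, at 28912 and 22201. The biliary epithelial list of 6 rows reached 36779 in control replicate 2. The other 4 controls, at 5035 to 6127, lay inside the mutant range of 3165 to 7055. The erythroid list of 3 rows ran from 3886 to 5924 in controls and from 3431 to 6533 in mutants. The striated muscle list of 3 rows reached 5638 in control replicate 2, against 268 to 559 in the other controls and 151 to 919 in mutants, and had no row for miR-133b. The neural list of 4 rows was lowest in replicate 1 of both genotypes, at 794 and 618, and had no row for miR-124. In these 8 lists 0 rows passed the limma test in either direction, where 13.0% of all 285 rows did. The part of cell composition in the low miR-125, let-7a, let-7c and let-7e values of the replicates 1 was not tested.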

How the data were processed

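Small RNA libraries were made from total RNA of liver extracted with TRIzol, per the labels' protocols. The authors deposited 1 table of 285 mature miRNAs by 10 libraries, in which the values are a signal: miRNA read counts scaled by 1 factor for each library. DESeq is the tool named in the submitters' processing notes. For aligner, miRNA annotation, genome build and filters, the sources used here give nothing. Columns were matched to samples by library number. Every value was a whole multiple of 1 step per library (0.711 to 1.68 normalised reads) within 0.001, which gave the depths. Reads without molecular identifiers are not independent molecules.

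Genotypes were compared with limma 3.58.1 in R 4.3.3 (log2(value + 1), intensity trend, rows with a mean of at least 5, Benjamini-Hochberg). All 285 rows passed that filter. Fold changes on this scale understate changes of rare miRNAs. The fit was run on simulated data with large changes and independent noise for each row. That run does not show how often differences as small as those of the members would be called. Labels do not say how the livers were collected, so p-values measure the spread between these samples. miRNAs were named by a fixed rule: members, let-7 of the clusters, relatives, other mTOR-linked miRNAs and the 3 nearest by likeness. Members and lists were chosen with earlier results of these data known. Sequences came from RefSeq and 3′ UTRs from GENCODE M21 (the longest 3′ UTR a gene). Figures used matplotlib 3.10.9. Alternatives covered pseudocounts, filters, scalings, weights, a replicate block and left-out libraries.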

Additional observations from a re-analysis of the deposited data

Results flagged for a closer look

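No member had a library that stood apart from the other 4 of its group by the gap between them. Among 52 groups of 5 values, for members, 3p strands, let-7 and the other named miRNAs, 8 did, where chance gives about 2.6, and the groups are not independent. miR-10b was highest in control replicate 2 at 3302 normalised reads (others 382 to 864) and in mutant replicate 5 at 1169 (others 343 to 532). miR-351, with the miR-125 seed, was lowest in control replicate 1 at 990 (others 1874 to 2201). miR-7a was highest in replicate 1 of both genotypes, at 23731 in controls and 17159 in mutants. miR-101a was highest in mutant replicate 1 at 261431. let-7g was lowest in mutant replicate 1 at 289614, and let-7i highest in mutant replicate 4 at 46094 normalised reads.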

How the results depend on the processing

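The number of members called as higher was 0 under all 23 alternatives, and the number called as lower was 0 under 22 and 1, miR-100, with array weights. The log2 fold changes of miR-125a-5p (-0.76 to -0.11), miR-125b-5p (-0.55 to -0.07) and miR-99b kept their sign and stayed short of the threshold in all 23. miR-99a turned to the other side of 0 with array weights (-0.0900), without control replicate 1 (-0.0414), control replicate 2 (-0.00408) or replicate 1 of both genotypes (-0.0439), and without these 3 libraries (-0.123), and ranged up to 0.107 with single libraries left out. miR-125a-3p turned without these 3 libraries (0.0841), could not be tested at a minimum mean of 100, and reached -0.299 without control replicate 4. Over all rows, 31 were higher and 6 lower. A minimum mean of 100 normalised reads, which tests fewer rows, gave 19 and 3. The number lower was 23 with array weights, 11 without replicate 1 of both genotypes, 13 without control replicate 2 as well, and 2 to 10 with single libraries left out (10 without control replicate 1, 3 without control replicate 3 or 5, 2 without mutant replicate 4). The cause of these shifts was not tested. The labels give no meaning to the replicate numbers, and they were not taken as pairs: same-numbered libraries had correlations of their deviations of 0.81, 0.16, -0.02, 0.46 and 0.05, so that numbers 1 and 4 varied together more than the others. The replicate block gave 10 lower rows and 0 members. Planned edgeR and DESeq2 fits were not run, since the table holds too few low values for recovered reads to be accepted for a count test. voom on whole reads was added after the data were seen. The log2 ratio of miR-125a-5p to let-7e lay between -0.49 and -0.38 with libraries left out. Levels of 33.9 to 75.4 normalised reads limit the precision for miR-125a-3p.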
